A study of Mus musculus with 8 samples.

Results

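The lysosome is the compartment in which a cell digests protein, sugar chains and lipid that it has taken up or set aside for turnover. The 43 genes described here encode its digestive enzymes and their cofactors, 3 proteins of its membrane, the proton pump that acidifies it, and Tfeb and Mitf, 2 transcription factors of the family that drives lysosomal genes. They were taken by symbol from a fixed list, with no cut on their values. The list was chosen with earlier results of these data known. All 43 are among the 15747 genes with values, of 55450 listed, and none was lost to a filter on low values. The RNA was total RNA of the Achilles tendon of C57BL/6J mice, all wild type, in 4 libraries after an injury and 4 after a sham operation. The injury was a partial transection in which an ear punch 1.5 mm wide removed a semicircle of 0.75 mm from the lateral side of the tendon. The labels name no other allele or agent in either group. The time after injury, the age and sex of the mice, what the sham operation included and whether each library is 1 animal are not given in the labels, so the p-values measure only how far these samples spread, and that spread may be technical.

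Lysosomal hydrolases are made as precursors, tagged with mannose 6-phosphate and mature in the acid lumen. That acid is kept up by the V-ATPase, a rotary pump with a cytosolic V1 part that splits ATP and a V0 part in the membrane that carries the protons. TFEB and its relatives MITF and TFE3 bind E-box sequences in the promoters of lysosomal genes, and mTORC1 at the lysosomal surface holds TFEB in the cytosol. In connective tissue, lysosomal proteases are known for collagen turnover by fibroblasts, macrophages and osteoclast-like cells.

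Injured tendon held more RNA for nearly all of the digestive enzymes, while the share of the pump's core subunits that were higher was close to that of all genes. With limma on log2(normalised read count + 1) and Benjamini-Hochberg adjustment over all genes, threshold 0.05, 31 of the 43 genes were higher after injury, 3 were lower and 9 were not called. Over all genes with values, 28.5% were higher, 31.3% were lower and 59.7% were called in either direction, so a call by itself is common in these data. At least a 2-fold rise was called for 14 of the 43 genes, against 7.94% of all genes. No gene of the 43 was called at least 2-fold lower, against 13.2% of all genes. The median log2 fold change of the 43 genes was 0.55, against −0.02 over all genes. All 4 injury libraries lay above all 4 sham libraries for 30 of the 43 genes, against 26.7% of all genes, and below them for 2, against 28.9%. In either direction the groups stood apart for 55.6% of all genes.

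The enzymes and the pump moved by different amounts. Of the 22 hydrolase and lipid-handling genes, 21 were higher, none was lower and 1 was not called, with a median log2 fold change of 0.98. Their summed level was 100072, 90864, 97998 and 95279 normalised read counts in the injury libraries and 54084, 52062, 51190 and 47864 in the sham libraries, 1.87-fold as much. Of the 14 core pump subunits, 4 were higher (28.6%, against 28.5% of all genes), 2 were lower and 8 were not called, with a median of 0.13. Their summed level was 13378, 12708, 13340 and 12708 in the injury libraries and 11386, 11646, 11234 and 11609 in the sham libraries, 1.14-fold as much. For both sums the injury libraries lay above all sham libraries. Without the gene of the highest count in each list, a sum chosen after the values were seen, they were 1.98-fold (without Psap) and 1.06-fold (without Atp6v1a). Genes within each list share libraries and are not replicates of one another, and the lists as wholes were not tested.

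**Figure D1:**
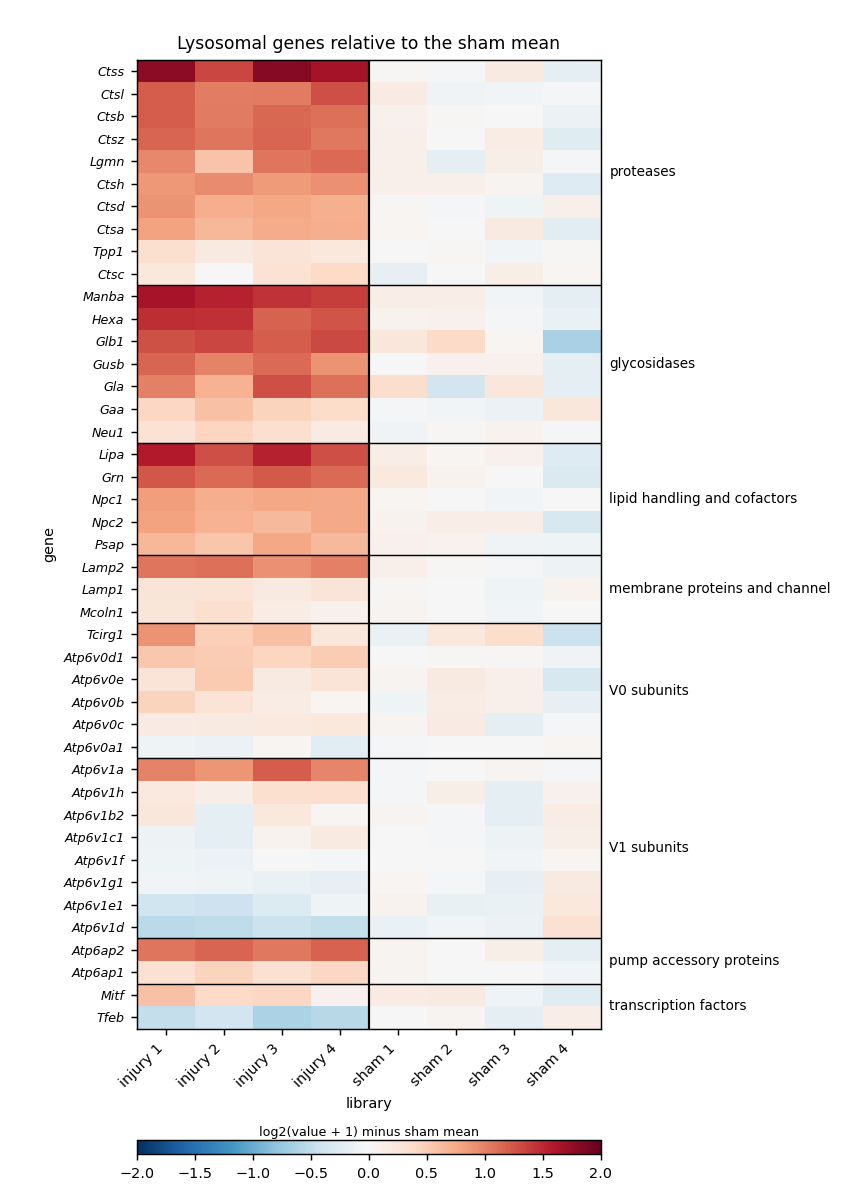
Each row is 1 of the 43 genes, grouped by role, and each column is 1 library; colour gives log2(normalised read count + 1) minus the mean of the 4 sham libraries of that gene. Most protease, glycosidase and lipid-handling rows are red in the 4 injury columns, with Tpp1 and Ctsc as pale as most V0 and V1 rows, Atp6v1a and Atp6ap2 stand out in red, and Tfeb is blue.

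**Figure D2:**
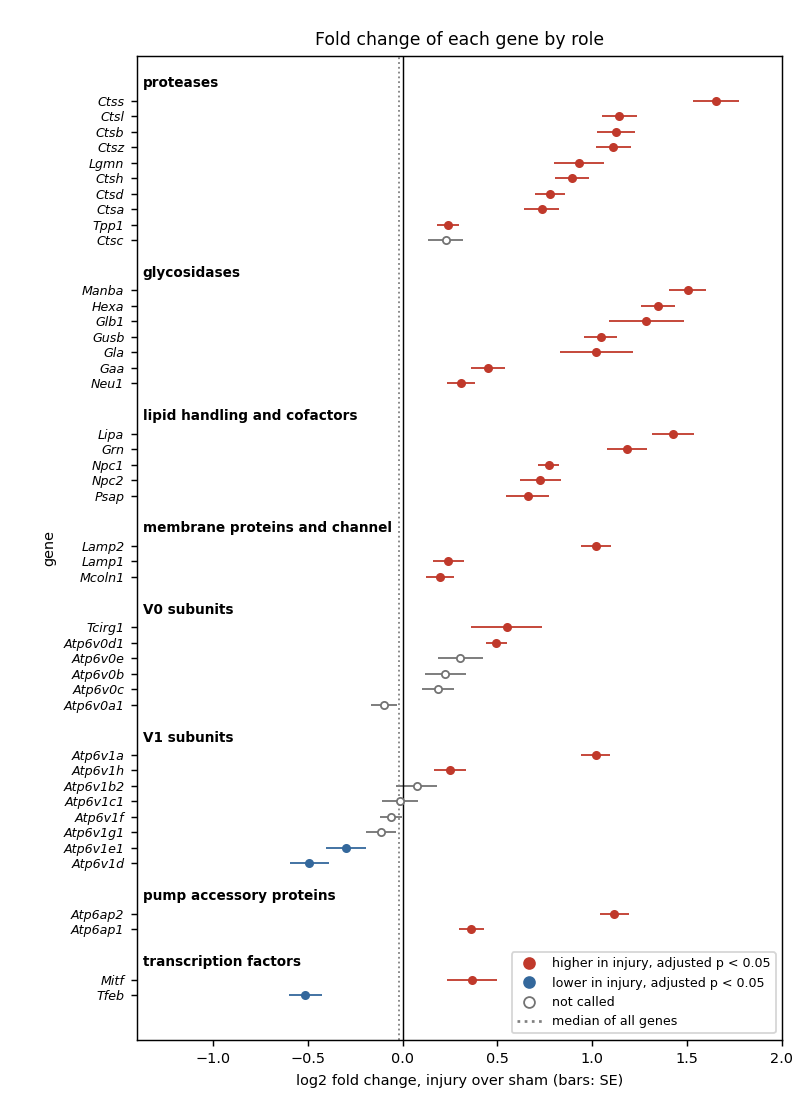
Points are log2 fold changes of injury over sham on the log2(value + 1) scale with bars of 1 SE from limma, filled where the adjusted p was under 0.05, and the dotted line is the median of all genes (−0.02). Among 22 hydrolase and lipid-handling genes only Ctsc is open, while 8 of the 14 V0 and V1 subunits are open and 2, Atp6v1d and Atp6v1e1, are filled in blue.

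Promoter sequences of these genes hold the E-box letters that the TFE family can bind. RefSeq windows of 300 bases, 250 before and 50 after a transcription start (GRCm38.p6), were matched for 36 of the 43 genes, and none was matched for Ctsb, Ctsh, Npc1, Atp6v1b2, Atp6v1c1, Atp6v1g1 or Atp6v1h. Each window was searched on both strands for CACGTG, the E-box, for TCACGTGA, the core of the CLEAR element, which contains that E-box, and for TCACATGA, the M-box bound by MITF. The E-box letters stood in the windows of 13 of 36 genes (36.1%), against 11.5% of all genes with values and a window, and the CLEAR core in 7 (19.4%), against 2.06%. By role, the E-box was in 7 of 19 hydrolase and lipid-handling genes (36.8%) and 4 of 10 core pump subunit genes (40%). The CLEAR core was in 3 of these 19 (15.8%) and 3 of these 10 (30%). The M-box stood in 5 (13.9%: Atp6v0c, Ctss, Gla, Grn and Tpp1), against 0.948%. The 10-base CLEAR palindrome, which adds 1 base at each end of the core, was in the window of none of the 36 genes and of 0.726% of all genes. The stretches below are shown because they place the same letters beside genes that differ in their response. Capitals mark the CLEAR core in Ctsa, Ctsd, Gla, Atp6v1a and Mcoln1, the E-box in Lamp1 and the M-box, read on either strand, in Grn and Atp6v0c. Ctsa, Ctsd and Gla are enzyme genes that were higher after injury:
Ctsa (chr2:164833743-164833772, forward strand): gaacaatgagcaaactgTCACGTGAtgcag
Ctsd (chr7:142387908-142387937, reverse strand): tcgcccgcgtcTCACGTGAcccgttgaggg
Gla (chrX:134601215-134601244, reverse strand): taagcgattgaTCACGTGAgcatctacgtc
Of the 3 pump subunit genes with the CLEAR core, Atp6v0d1 rose 1.41-fold, Atp6v0e was not called and Atp6v1a, shown here, rose 2.03-fold:
Atp6v1a (chr16:44139358-44139417, reverse strand): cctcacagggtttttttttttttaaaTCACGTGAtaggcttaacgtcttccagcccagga
Mcoln1 and Lamp1 are membrane protein genes with small differences:
Mcoln1 (chr8:3500462-3500491, forward strand): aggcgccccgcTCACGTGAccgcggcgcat
Lamp1 (chr8:13159096-13159155, forward strand): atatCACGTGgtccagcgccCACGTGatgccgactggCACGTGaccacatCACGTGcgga
Grn rose 2.28-fold and Atp6v0c was not called:
Grn (chr11:102430285-102430314, forward strand): tgattctctaaTCACATGAtccctagaaat
Atp6v0c (chr17:24169451-24169480, reverse strand): gggcggggacagaTCATGTGAcgcgagcgc
The Lamp1 window holds 4 E-boxes within 60 bases, and its RNA rose 1.18-fold. The 13 genes with an E-box had log2 fold changes of 0.20 to 1.29 (median 0.73), 11 of them called higher and none lower. The 23 genes with a window and no E-box had −0.51 to 1.65 (median 0.55), 16 called higher and 3 lower. These are matches of letters in 1 window per start and a description only, and the difference between those medians was not tested. E-box letters are already known from promoters of lysosomal genes. A share above that of all genes could be foreseen for this list and is not independent support.

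Of 10 protease genes, 9 were higher and 1 was not called (median log2 fold change 0.91). Ctss (chromosome 3, 95526786 to 95556403, forward strand, in GENCODE M21), which encodes cathepsin S, a cysteine protease of antigen-presenting cells that also cleaves elastin, had 2654, 1933, 2716 and 2426 normalised read counts in the injury libraries, against 782, 756, 870 and 670 in the sham libraries. The groups did not overlap, and injury replicate 2 was the lowest of its group. Its rise of 3.14-fold (log2 1.65, SE 0.12, adjusted p = 1.01e-05 in limma) was the highest of the 43 genes. Ctsb (chromosome 14, 63122462 to 63145923, forward strand), encoding the cysteine protease cathepsin B, had 22330, 19805, 21489 and 20725 in injury and 10251, 9771, 9752 and 8884 in sham. The lowest injury library lay far above the highest sham library, and the rise was 2.18-fold (adjusted p = 2.86e-05 in limma). Ctsc (chromosome 7, 88278085 to 88310888, forward strand), whose product activates serine proteases of leukocyte granules, had 989, 865, 1051 and 1124 in injury and 768, 858, 927 and 881 in sham. Its groups overlapped, and its difference of 0.23 on the log2 scale (SE 0.09, adjusted p = 0.0637 in limma) was not called, though it was called with median-ratio (adjusted p = 0.0484) and upper-quartile scaling (adjusted p = 0.0238) and without injury replicate 2 (adjusted p = 0.0192).

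The other proteases lay between these. Ctsl, encoding the collagen- and elastin-cleaving cathepsin L, rose 2.21-fold to 7666 ± 681 in injury, against 3471 ± 266 in sham (mean ± SD, n = 4 each). Ctsz, encoding a carboxypeptidase, rose 2.16-fold to 3324 ± 138, against 1545 ± 180. Lgmn encodes legumain, an asparaginyl endopeptidase that matures other cathepsins, and rose 1.91-fold to 2815 ± 462, against 1466 ± 143. Ctsh, an aminopeptidase gene, rose 1.86-fold, Ctsd, which encodes the aspartic protease cathepsin D, 1.71-fold, and Ctsa, whose product both trims peptides and shields β-galactosidase and neuraminidase, 1.66-fold. The smallest called rise was that of Tpp1, encoding tripeptidyl peptidase, with 1423, 1283, 1354 and 1310 in injury and 1147, 1153, 1093 and 1155 in sham (1.18-fold, adjusted p = 0.00661 in limma). Its groups stood apart, with a narrow range in each.

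All 7 glycosidase genes were higher (median log2 fold change 1.04), and 4 of them were called when the average level of 20 skeletal muscle markers was added to the model (the muscle covariate). Of the other 3, Gaa had a log2 fold change of 0.49 (SE 0.17) in that fit, against 0.45 (SE 0.09) without the covariate, Glb1 had 1.02 (SE 0.38), against 1.29 (SE 0.20), and Neu1 had 0.17 (SE 0.14), against 0.31 (SE 0.07). The covariate, a mean of log2 values, was 10.8 to 13.5 in injury and 14.6 to 15.7 in sham. Because it did not overlap between the groups, that fit cannot separate a group difference from a difference in muscle RNA, here or below. Manba (chromosome 3, 135485611 to 135571404, forward strand), encoding β-mannosidase, which acts late in the breakdown of N-linked sugar chains, had 590, 551, 514 and 493 normalised read counts in injury and 206, 206, 181 and 164 in sham. The lowest injury library lay far above the highest sham library, and the rise was 2.83-fold (log2 1.50, SE 0.10, adjusted p = 5.58e-06 in limma). Hexa (chromosome 9, 59539540 to 59565109, forward strand), encoding the α subunit of the hexosaminidase that degrades gangliosides, had 4895, 4860, 4008 and 4221 in injury and 1847, 1876, 1737 and 1599 in sham. It rose 2.54-fold (adjusted p = 6.64e-06 in limma) with no overlap. Neu1 (chromosome 17, 34931253 to 34935953, forward strand), encoding the lysosomal sialidase, had 565, 623, 585 and 515 in injury and 441, 470, 484 and 450 in sham. That rise of 1.24-fold (adjusted p = 0.00607 in limma) was the smallest of the role, and its call was lost with equal library totals (adjusted p = 0.089).

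Among the remaining glycosidases, Glb1, the β-galactosidase gene whose activity is used as a senescence stain, rose 2.44-fold to 371 ± 14.5 in injury, against 157 ± 44.0 in sham. Sham replicate 4 held 96 of its counts and the other sham libraries 156 to 198, so the spread lay on the sham side. Gusb, encoding β-glucuronidase, rose 2.06-fold to 1225 ± 103, against 593 ± 48.8. Gla, encoding the α-galactosidase that is missing in Fabry disease, was the least abundant of the 43 genes per kilobase of exon, at 50.8 in injury and 25.1 in sham, and rose 2.03-fold (adjusted p = 0.00151 in limma). Gaa, which encodes the glycogen-degrading acid α-glucosidase, rose 1.37-fold to 2666 ± 174, against 1954 ± 213.

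All 5 lipid-handling and cofactor genes were higher (median log2 fold change 0.77). Lipa (chromosome 19, 34492318 to 34527474, reverse strand), encoding the acid lipase that splits cholesteryl esters and triglycerides, had 1775, 1443, 1705 and 1432 normalised read counts in injury and 646, 603, 622 and 492 in sham. Its groups were far apart, with a rise of 2.69-fold (log2 1.43, SE 0.11, adjusted p = 1.24e-05 in limma). Psap (chromosome 10, 60277627 to 60302597, forward strand), encoding the precursor of the saposins that present sphingolipids to their hydrolases, had 22544, 20891, 24170 and 22173 in injury and 15139, 14910, 13494 and 13324 in sham. It had the smallest rise of its role, 1.58-fold (adjusted p = 0.00084 in limma), and no overlap. Per kilobase of exon it was the most abundant of the 43 genes in both groups, at 8179 in injury and 5181 in sham.

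Grn encodes progranulin, a secreted and lysosomal glycoprotein cut into granulins, and rose 2.28-fold to 5418 ± 239 in injury, against 2397 ± 333 in sham. Npc1 and Npc2 encode the membrane and the soluble protein that pass cholesterol out of the lysosome. Npc1 rose 1.71-fold to 1165 ± 39.0, against 682 ± 19.1, and Npc2 rose 1.65-fold to 3535 ± 173, against 2153 ± 301.

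The 3 membrane genes were all higher but by unequal amounts (median log2 fold change 0.24). Lamp2 (chromosome X, 38401357 to 38456454, reverse strand), whose product takes part in chaperone-mediated autophagy and in the fusion of autophagosomes, had 7391, 7509, 6604 and 7026 in injury and 3772, 3559, 3453 and 3265 in sham. It rose 2.03-fold (adjusted p = 1.36e-05 in limma). Lamp1 (chromosome 8, 13159161 to 13175338, forward strand), the other major glycoprotein of the lysosomal membrane, had 10400, 10562, 9809 and 10402 in injury and 8887, 8621, 8151 and 9164 in sham. Its groups did not overlap, but the rise was 1.18-fold (log2 0.24, SE 0.08, adjusted p = 0.0323 in limma) and lost its call without any 1 of the libraries other than sham replicate 4 (adjusted p of up to 0.0902). Mcoln1, encoding the calcium release channel TRPML1, had 506, 536, 473 and 454 in injury and 447, 426, 412 and 429 in sham. That difference of 1.15-fold (adjusted p = 0.0385 in limma) was lost without any 1 of injury replicates 1, 2 and 3 and sham replicates 2, 3 and 4 (highest adjusted p 0.103) and with 1 prior variance for all genes (adjusted p = 0.0536).

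**Figure D3:**
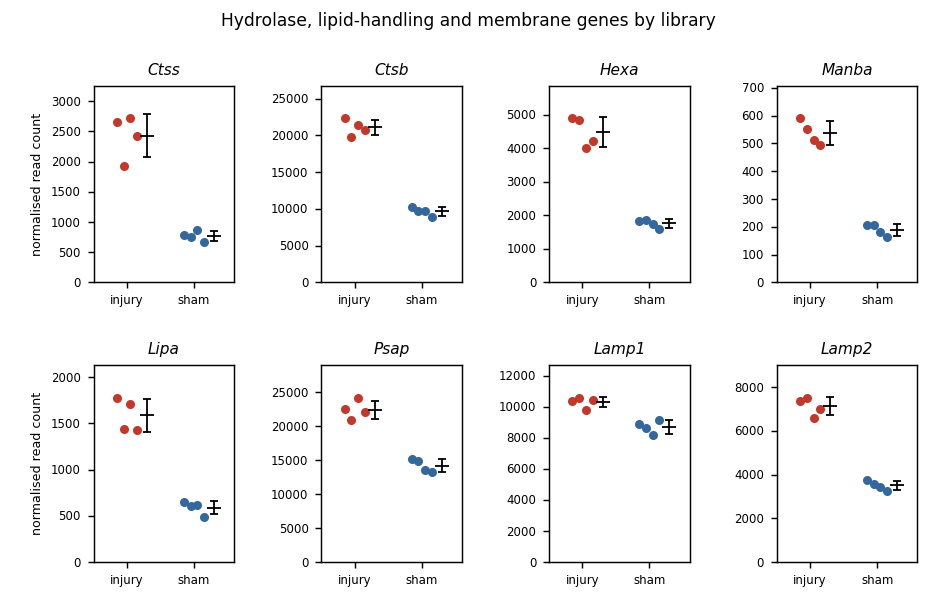
Points are normalised read counts of 8 hydrolase, lipid-handling and membrane genes in each of 4 injury and 4 sham libraries, with a bar at the mean and whiskers of 1 SD; each axis starts at 0. The injury points of Ctss (1933 to 2716), Manba, Hexa and Lipa lie far above the sham points, and those of Lamp1 (9809 to 10562 against 8151 to 9164) lie just above them.

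In the membrane part of the pump, 2 of 6 V0 genes were higher and 4 were not called (median log2 fold change 0.27, and −0.04 with the muscle covariate). The 2 became 4 with upper-quartile scaling or without sham replicate 2, and 1 in the fits that ended the call of Tcirg1. Atp6v0d1, encoding the d subunit that couples V0 to the central stalk, had 1171, 1151, 1085 and 1154 normalised read counts in injury and 814, 821, 826 and 774 in sham. The 2 groups were tight and apart, and the rise of 1.41-fold had an adjusted p of 9.62e-05 in limma. Atp6v0e, encoding a small membrane subunit, had 1446, 1731, 1361 and 1433 in injury and 1244, 1358, 1289 and 965 in sham. Its groups did not overlap, but its log2 fold change of 0.30 (adjusted p = 0.0516 in limma) was not called; it was called with median-ratio (adjusted p = 0.0335) or upper-quartile scaling (adjusted p = 0.04) and without sham replicate 2 (adjusted p = 0.0398). The proteolipid ring genes Atp6v0b (log2 fold change 0.23, adjusted p = 0.0964) and Atp6v0c (0.19, adjusted p = 0.0808) were not called by limma. Without injury replicate 4, Atp6v0b was called (adjusted p = 0.0432), and without sham replicate 2, Atp6v0c was called (adjusted p = 0.0376). Atp6v0c is also uncertain because a processed pseudogene, Atp6v0c-ps2, had values of its own, 414 ± 39.1 in injury and 303 ± 28.7 in sham, and could share its reads.

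The a subunit of V0 exists in several forms that send the pump to different membranes. Tcirg1 (chromosome 19, 3896050 to 3907133, reverse strand) encodes the form of osteoclast and leukocyte lysosomes, and had 1008, 752, 820 and 631 in injury and 494, 624, 692 and 401 in sham. The groups overlapped, since injury replicate 4 lay below sham replicate 3. The rise of 1.46-fold (log2 0.55, SE 0.19, adjusted p = 0.0316 in limma) lost its call without any 1 of injury replicates 1, 2 and 3 and sham replicates 1 and 4 (adjusted p of up to 0.0784), and with the muscle covariate it was −0.14. Atp6v0a1 (chromosome 11, 101009452 to 101063719, forward strand), encoding a widely expressed form, had 934, 915, 1021 and 844 in injury and 971, 985, 989 and 1017 in sham. It was not called (log2 −0.10, SE 0.07, adjusted p = 0.255 in limma), with overlapping groups. Within each library, log2 Tcirg1 minus log2 Atp6v0a1 was 0.11, −0.28, −0.32 and −0.42 in injury and −0.97, −0.66, −0.52 and −1.34 in sham. The difference between the groups was 0.65, with an exact two-sided permutation p of 0.0286, the smallest that 4 against 4 libraries allow. Leaving out 1 library gave 0.49 to 0.76 with an exact p of 0.0571 each, the smallest that 3 against 4 allow. Per kilobase of exon, Tcirg1 over Atp6v0a1 averaged 1.23 in injury and 0.80 in sham.

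In the cytosolic part, 2 of 8 V1 genes were higher, 2 were lower and 4 were not called. The median log2 fold change was −0.04, which turned to 0.01 with upper-quartile scaling, to 0.12 with the muscle covariate and to 0.002 without injury replicate 2. Atp6v1a (chromosome 16, 44085402 to 44139705, reverse strand), encoding the A subunit that splits ATP, had 1842, 1705, 2138 and 1811 normalised read counts in injury and 903, 919, 955 and 910 in sham. All injury libraries lay far above the narrow sham range, and the rise was 2.03-fold (log2 1.02, SE 0.08, adjusted p = 1.19e-05 in limma). Its log2 fold change stayed between 0.93 and 1.10 over 19 other settings, and its call was kept in each. Atp6v1b2, encoding the B subunit that alternates with A in the same ring, had 1149, 867, 1132 and 1003 in injury and 1016, 955, 867 and 1090 in sham. These groups overlapped almost fully (log2 fold change 0.08, adjusted p = 0.568 in limma). Per kilobase of exon, Atp6v1a over Atp6v1b2 averaged 1.59 in injury and 0.831 in sham, values given as a description. These ratios depend on the length used. Per kilobase of longest transcript, Atp6v1a was at 443 in injury and 218 in sham, and Atp6v1b2 at 367 and 348.

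Atp6v1d (chromosome 12, 78840725 to 78861638, reverse strand), encoding the central stalk subunit, had 450, 464, 485 and 470 in injury and 601, 629, 605 and 813 in sham. It was 0.712-fold (log2 −0.49, SE 0.10, adjusted p = 0.00244 in limma) and its groups did not overlap. With the muscle covariate its log2 fold change was −0.28 (adjusted p = 0.3). Atp6v1e1, a peripheral stalk subunit gene, had 957, 947, 1043 and 1191 in injury and 1322, 1144, 1155 and 1464 in sham. Its groups overlapped, and its log2 fold change of −0.30 (adjusted p = 0.0359 in limma) lost its call without any 1 of injury replicates 1, 2 and 3 and sham replicates 1 and 4 (adjusted p of up to 0.0939) and was 0.08 with the muscle covariate. It also lost its call with median-ratio scaling (adjusted p = 0.0543) and with 1 prior variance for all genes (adjusted p = 0.0526). Atp6v1h, encoding a subunit that restrains ATP splitting in free V1, had 557, 531, 607 and 614 in injury and 475, 525, 429 and 512 in sham. The groups came close without overlap, and the rise of 1.19-fold (adjusted p = 0.0289 in limma) lost its call without any 1 of injury replicates 3 and 4 and sham replicates 1 and 3 (adjusted p of up to 0.0768). The other V1 genes not called were Atp6v1c1 (log2 fold change −0.01), Atp6v1f (−0.06) and Atp6v1g1 (−0.11), with adjusted p of 0.908, 0.385 and 0.251 in limma. The sign of Atp6v1c1 changed with the scaling, at 0.004 with median-ratio and 0.03 with upper-quartile factors.

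Both accessory genes of the pump were higher. Atp6ap2 (chromosome X, 12587801 to 12617049, forward strand), which encodes the prorenin receptor, a membrane protein needed for pump assembly, had 1877, 2016, 1871 and 2034 in injury and 934, 900, 975 and 792 in sham. The groups stood far apart, with a rise of 2.17-fold (log2 1.12, SE 0.08, adjusted p = 7.42e-06 in limma). Atp6ap1, encoding the other accessory glycoprotein, had 3079, 3409, 3097 and 3323 in injury and 2595, 2511, 2511 and 2410 in sham. That smaller rise of 1.29-fold (adjusted p = 0.00115 in limma) also had no overlap.

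**Figure D4:**
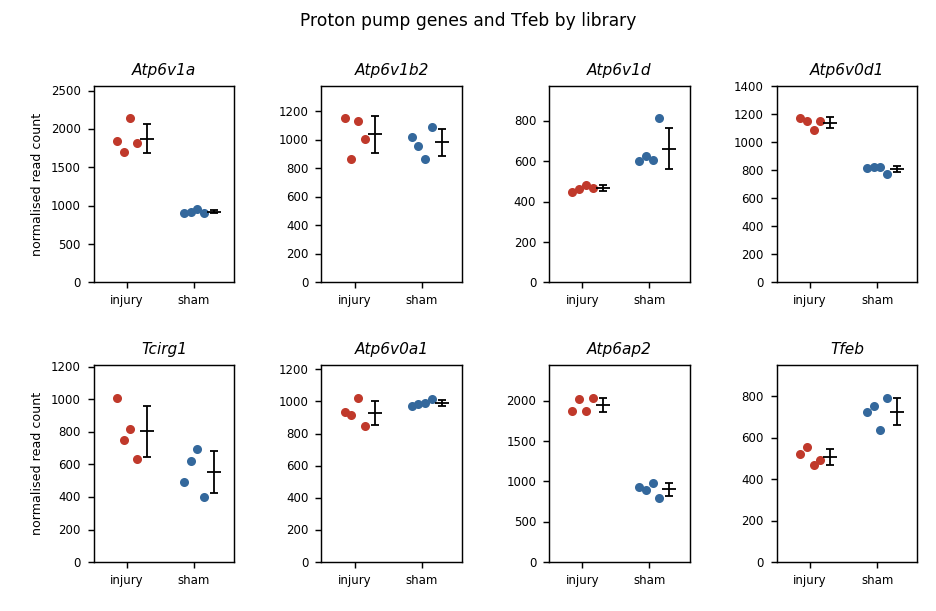
Points are normalised read counts of 7 pump genes and Tfeb in each of 4 injury and 4 sham libraries, with a bar at the mean and whiskers of 1 SD; each axis starts at 0. Atp6v1a and Atp6ap2 lie near 1900 in injury and near 900 in sham, Atp6v1b2 and Atp6v0a1 overlap between the groups, and Atp6v1d and Tfeb are lower in injury.

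The 2 transcription factor genes went opposite ways. Tfeb (chromosome 17, 47737030 to 47792419, forward strand), a master regulator of lysosomal genes whose activity is set mainly by phosphorylation and nuclear entry, had 520, 555, 468 and 491 in injury and 723, 755, 637 and 792 in sham. All injury libraries lay below all sham libraries, and its level was 0.701-fold (log2 −0.51, SE 0.09, adjusted p = 0.000829 in limma), the lowest fold change of the 43 genes. It was called lower in each of 19 other settings, with log2 fold changes of −0.60 to −0.39. Mitf (chromosome 6, 97807052 to 98021349, forward strand), the family member of melanocytes, mast cells and osteoclasts, had 534, 462, 474 and 375 in injury and 397, 400, 334 and 299 in sham. Its groups overlapped, and the rise of 1.29-fold (adjusted p = 0.0367 in limma) lost its call without any 1 of injury replicates 1, 2 and 3 and sham replicates 3 and 4 (adjusted p of up to 0.0947) and was −0.06 on the log2 scale with the muscle covariate. Their relatives were singled out after their values were seen. Tfe3 had 662, 668, 703 and 666 in injury and 521, 472, 551 and 450 in sham (log2 fold change 0.44, adjusted p = 0.000979 in limma). Tfec was low, at 18 to 37 in injury and 7 to 25 in sham, and was not called (adjusted p = 0.102 in limma).

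The 43 genes differed in how closely their replicates lay together. The coefficient of variation across injury libraries had a median of 6.92% and ran from 1.47% for Atp6v0c to 19.6% for Tcirg1. In sham it had a median of 9.1% and ran from 1.95% for Atp6v0a1 to 28.1% for Glb1. Sham replicate 4 was the lowest sham library for 21 of the 43 genes and the highest for 12, including Atp6v1d and Atp6v1e1. Leaving out at once the libraries with the most muscle RNA for their group (sham 4, injury 3 and injury 4), 32 of the 43 genes were higher and 3 were lower. Over all genes, fewer were higher than lower in that fit, and both counts were smaller than with all libraries.

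Other lysosomal enzyme genes were mostly higher too. For comparison with this list and those below, 28.5% of all genes were higher and 31.3% lower. With the muscle covariate 2233 of 15747 genes were higher and 1727 lower. Of 38 further hydrolase and cofactor genes with values, 32 were higher, 2 were lower and 4 were not called (median log2 fold change 0.69, against −0.02 over all genes). With the muscle covariate 16 were higher and 0 lower, and in the fits without 1 library 0 or 1 was lower. Ctsk, encoding cathepsin K, the collagen-degrading protease of osteoclasts and activated fibroblasts, had 10354, 13939, 11468 and 13692 in injury and 1274, 2090, 1481 and 1413 in sham. Its rise of 7.98-fold (adjusted p = 2.13e-06 in limma) was larger than that of Ctss, the highest of the 43 genes. Naglu, which degrades heparan sulfate, rose 3.33-fold and Dpp7, a dipeptidyl peptidase gene, 2.04-fold. Ppt2, a thioesterase gene, was 0.799-fold (adjusted p = 0.0285 in limma), a call lost without any 1 of injury replicates 1, 3 and 4 and sham replicates 2, 3 and 4 (adjusted p of up to 0.0751). Of 24 further membrane genes, 17 were higher, 2 were lower and 5 were not called (median 0.54); with the muscle covariate 10 were higher and 1 was lower. Slc17a5, the sialic acid exporter gene, rose 2.74-fold to 589 ± 37.0 in injury, against 215 ± 9.33 in sham. Cd63, a tetraspanin gene, rose 2.23-fold and Slc15a3, a peptide and histidine transporter gene, 2.02-fold. Laptm4a rose 1.52-fold, and the peptide transporter gene Abcb9 was 0.618-fold.

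The remaining pump genes were again mixed. Of 13 with values, 4 were higher (30.8%, against 28.5% of all genes), 2 were lower and 7 were not called (median log2 fold change 0.07). With the muscle covariate 0 of the 13 were lower. Atp6v0d2, the d subunit form of osteoclasts and macrophages, had 397, 233, 378 and 258 in injury and 10, 9, 14 and 10 in sham. It rose 26.6-fold (log2 4.74, SE 0.21, adjusted p = 9.07e-07 in limma). Atp6v0a4, an a subunit form best known from kidney and inner ear, had 1316, 1258, 1400 and 1207 in injury and 332, 356, 373 and 284 in sham (3.86-fold, adjusted p = 1.16e-06 in limma). Both stood far apart between the groups. Tmem9 rose 1.81-fold, and Atp6v0a2, a Golgi form of the a subunit, rose 1.19-fold, a call lost without any 1 of injury replicates 2 and 4 and sham replicates 1 and 3 (adjusted p of up to 0.0647). Atp6v0e2 had 118, 161, 192 and 223 in injury and 421, 389, 355 and 455 in sham (0.42-fold, adjusted p = 0.00035 in limma), and it was not called with the muscle covariate (log2 −0.38, adjusted p = 0.101).

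Genes that deliver the enzymes to the lysosome rose in part. Of 12, 7 were higher, 3 were lower and 2 were not called (median log2 fold change 0.35), and with the muscle covariate 0 were lower. Gnptab, encoding the enzyme that starts the mannose 6-phosphate tag, rose 1.75-fold to 790 ± 32.3 in injury, against 450 ± 7.85 in sham. Igf2r, encoding the larger mannose 6-phosphate receptor, rose 1.71-fold to 3038 ± 331, against 1780 ± 224. Sumf1, which activates sulfatases, rose 1.91-fold and the sorting adaptor gene Gga2 1.62-fold. Sort1, encoding the alternative receptor sortilin, was 0.501-fold (419 ± 124 in injury and 814 ± 105 in sham), and with the muscle covariate it was not called (log2 −0.35, adjusted p = 0.431). Of 3 cystatin genes with values, whose products inhibit cysteine cathepsins, Cstb rose 1.74-fold to 625 ± 48.0, against 358 ± 10.1. The abundant secreted inhibitor gene Cst3 had 47467, 46126, 35183 and 44929 in injury and 41188, 33863, 41978 and 32764 in sham, with overlapping groups and no call (log2 fold change 0.21, adjusted p = 0.34 in limma).

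Of 20 genes of the TFE family and of mTORC1 at the lysosome, 4 were higher, 7 were lower and 9 were not called (median log2 fold change −0.17). With the muscle covariate 1 was higher and 1 lower, and with equal library totals 11 were lower. More of all genes were also lower with equal totals, where their median log2 fold change was −0.112, against −0.021 in the main fit. Mtor, the kinase gene, had 742, 656, 731 and 662 in injury and 1031, 962, 1033 and 1127 in sham (0.672-fold, adjusted p = 0.000176 in limma). Rragd, encoding a Rag GTPase that is itself a TFEB target, had 96, 183, 339 and 451 in injury and 1329, 1592, 1297 and 2849 in sham (0.137-fold), but with the muscle covariate its log2 fold change was −0.55 (adjusted p = 0.0951). Rragc, encoding a related Rag GTPase, rose 1.43-fold. Of the genes for the complex that restrains mTORC1, Tsc1 was 0.633-fold and Tsc2 1.61-fold, and both calls were lost with the muscle covariate (log2 −0.42 and 0.09).

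Markers of several cell types moved with these genes. In bulk RNA, fewer or more cells of a type and less or more RNA per cell cannot be told apart. Of 16 macrophage markers, 11 were higher and 1 was lower, and their summed level was 31562 to 37534 normalised read counts in injury and 14415 to 20656 in sham (1.99-fold), with none at 0 in any library. Lyz2, the lysozyme gene and the member with the highest count, rose 2.92-fold and made up much of that sum. Without it the other 15 markers summed to 13591 to 15817 in injury and 8343 to 12696 in sham (1.41-fold), and the median log2 fold change of all 16 was 0.51. Of 8 osteoclast markers with values, 7 were higher, with sums of 14373 to 17810 in injury and 3339 to 4057 in sham (4.55-fold). Without Ctsk the other 7 summed to 3700 to 4145 in injury and 1926 to 2151 in sham (1.97-fold). Ctsk, Acp5 and Atp6v0d2 are lysosomal genes in that list too. Of the other markers with values, Dcstamp, Mmp9, Itgb3 and Nfatc1 were higher and Tnfrsf11a was not called. Calcr, Oscar and Ocstamp had no values, which does not show that they were absent. All 20 skeletal muscle markers were lower, with sums of 49032 to 333383 in injury and 770673 to 1526913 in sham, and all 8 fat cell markers were lower, with sums of 1658 to 3577 in injury and 9408 to 20150 in sham. Of 11 tendon markers 7 were higher and none was lower and all had values. Their sums were 2414872 to 2862580 in injury and 763079 to 1389354 in sham (2.58-fold, or 2.49-fold without Col1a2). Most of these sums came from Col1a2 and Col1a1, and neither was called (adjusted p = 0.133 and 0.0524 in limma). Col1a1, which stays in the sum without Col1a2, had means of 956702 in injury and 293832 in sham. The median log2 fold change of the 11 tendon markers was 1.21. What part these shifts have in the levels of the lysosomal genes was not tested. As a measurement, with the mean of the muscle markers as a covariate 21 of the 43 genes were higher and 1, Tfeb, was lower. Over all 15747 genes 2233 were higher and 1727 lower in that fit. The covariate did not overlap between the groups, so the fit cannot separate a group difference from a difference in muscle RNA. Of the calls lost in that fit, Lamp1 (log2 fold change 0.25, SE 0.15), Atp6ap1 (0.38, SE 0.13) and Gaa had fold changes at least as large as without it and larger SEs. Those of Glb1, Npc2 (0.51), Tpp1 (0.20), Neu1, Mcoln1 (0.04) and Atp6v1d (−0.28) were smaller, and those of Tcirg1, Mitf and Atp6v1e1 changed sign. The macrophage markers were not used as a covariate.

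**Figure D5:**
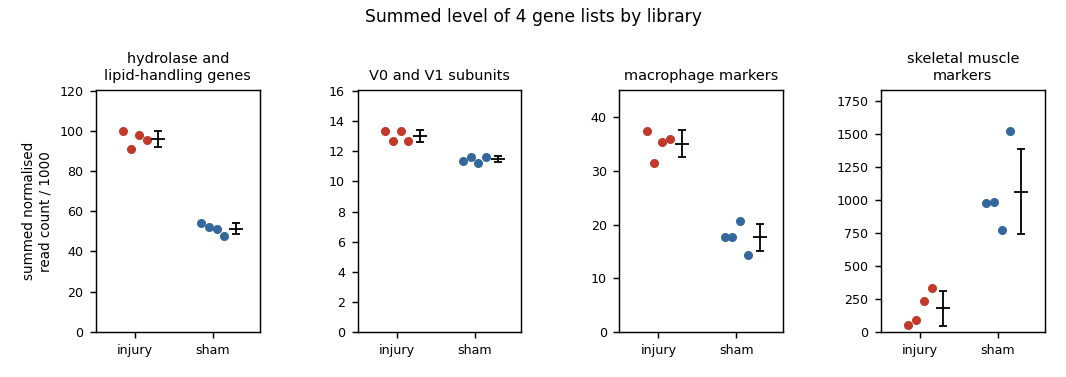
Points are summed normalised read counts, divided by 1000, of 4 gene lists in each of 4 injury and 4 sham libraries, with a bar at the mean and whiskers of 1 SD; each axis starts at 0. The hydrolase and lipid-handling sum and the macrophage marker sum are higher in injury (1.87-fold and 1.99-fold, or 1.98-fold without Psap and 1.41-fold without Lyz2), the V0 and V1 sum is 1.14-fold, and the muscle sum is lower in injury and differs widely between its libraries.

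Per-library totals were 14568669 to 16263086 normalised read counts in injury and 13596488 to 15545903 in sham, and libraries correlated at 0.963 to 0.986 within injury, 0.978 to 0.988 within sham and 0.819 to 0.921 between the groups. The 43 genes held 0.866 ± 0.0596% of the total in injury and 0.554 ± 0.0432% in sham (SD, n = 4 each). Exons of 9 of them (Ctsa, Ctsb, Ctsz, Hexa, Glb1, Npc1, Grn, Lamp1 and Atp6v0b) overlap those of another gene with values, and whether the counting used strand is not given in the sources used here. Among the 34 genes without such overlap, 23 were higher and 3 were lower. Over all genes without such overlap, fewer were higher than lower.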

How the data were processed

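RNA of 8 Achilles tendon libraries, 4 injury and 4 sham by sample title, was sequenced by the authors. The unit of the deposited values is a score: normalised read counts, per the file headers, that the authors rounded to whole numbers. The tools that the submitters' processing notes name are edgeR 3.12, StringTie 1.3.5, STAR 2.7.6a and Trimmomatic 0.39; how values were normalised, which build served which step and whether counting used strand is not given in the sources used here. Depth is known only as summed normalised counts and not as sequenced reads, so no counting intervals are given.

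Because the values are not raw counts, limma 3.58.1 (R 4.3.3) was fitted to log2(value + 1) of all 15747 genes with at least 1 in at least 4 libraries, a filter that removed 0 genes, with the group as the only term, a prior variance following mean expression and two-sided p-values adjusted by Benjamini-Hochberg. Fold changes on this scale understate those of low genes. The script was tested on simulated data. The members, lists and settings were chosen with earlier results of these data known. All 43 genes may be named. Every library is given for the highest, the lowest and the most abundant gene of each role, both transcription factors and both a subunits, and for some others by choice. Of each further list up to 3 called genes of the direction with more calls, the first of the other direction and the most abundant were named. All osteoclast markers and the tendon marker Col1a1 were named as well. Positions and exon unions came from GENCODE M21 (GRCm38), which 99.9% of identifiers matched (96.8% in version), and promoters from RefSeq (GRCm38.p6). Levels per kilobase divide by the union of exons. Replicates of a group shared 1.11 to 2.25% equal values, so none was a plain copy of another. That share cannot tell whether 2 libraries came from the same animal or RNA. Figures used matplotlib 3.10.9 under Python 3.11.15, and exact tests scipy 1.17.1. Alternatives were other scalings, pseudocount, filter and prior variance, a replicate block, a muscle covariate, genes without overlapping exons and each library left out.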

Additional observations from a re-analysis of the deposited data

Results flagged for a closer look

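In groups of 4 libraries, a library was marked where its gap to the nearest other, divided by the range of its group, passed Dixon's 95% critical value. Chance marks about 1 in 20 groups, and among the 86 gene groups of the 43 genes 4 were marked. Sham replicate 4 accounted for 3 of these. It held 657 normalised read counts of Ctsh, where the other sham libraries held 823 to 850, and 1707 of Npc2, where they held 2238 to 2334. It held 813 of Atp6v1d, where they held 601 to 629. Sham replicate 3 held 1093 of Tpp1, against 1147 to 1155 in the other sham libraries. Among the further genes named, injury replicate 2 held 644 of Slc17a5, against 566 to 578 in the other injury libraries, and injury replicate 3 held 703 of Tfe3, against 662 to 668. The calls of these 6 genes were kept without the library named.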

How the results depend on the processing

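Over 19 other settings, 21 to 34 of the 43 genes were higher. The lowest count came with the muscle covariate, under which 1 was lower and 2233 genes in all were higher and 1727 lower. With equal library totals 24 of the 43 were higher, with median-ratio scaling 33, with upper-quartile scaling 34, and with 1 library left out 26 to 31. All genes moved the same way as these counts. Their median log2 fold change was −0.112 with equal totals, −0.002 with median-ratio and 0.027 with upper-quartile scaling, against −0.021 in the main fit. With 1 library left out 4071 to 4307 of all genes were higher, against 4481 in the main fit. Role medians of log2 fold change moved as follows. With equal totals they were 0.151 for membrane genes, 0.173 for V0, −0.129 for V1 and 0.648 for accessory genes. With the muscle covariate they were −0.039 for V0, 0.116 for V1 and −0.312 for the transcription factors. The V1 median was 0.01 with upper-quartile scaling and −0.071 to 0.002 with 1 library left out. Leaving out 1 library gave 0.986 to 1.141 for glycosidases and 0.185 to 0.32 for V0. The membrane median was 0.61 without genes with overlapping exons, which leaves 2 genes. The transcription factor median was 0.007 without sham replicate 4 and injury replicates 3 and 4. The Tcirg1 minus Atp6v0a1 difference was 0.4883 to 0.7636 with 1 library left out, each with an exact p of 0.0571. Signs that turned with the muscle covariate were Tcirg1 (−0.1427), Atp6v0b (−0.2061), Atp6v1c1 (0.3404), Atp6v1e1 (0.0803), Atp6v1f (0.0285), Mitf (−0.0569) and Cst3 (−0.1092). Atp6v1b2 was −0.0161 with equal totals. Atp6v1c1 was 0.0042 with median-ratio and 0.0335 with upper-quartile scaling, and −0.0776 to 0.0482 with 1 library left out. The cause of these moves was not tested. Equal totals ended the calls of Tpp1, Neu1, Lamp1, Mcoln1, Tcirg1, Atp6v1h and Mitf. Same-numbered libraries deviated together at correlations of 0.249, 0.284, −0.01 and 0.493, and not every library correlated best with its own number, so the numbers were not taken as pairs; with the replicate number as a block 32 of the 43 genes were higher and 3 lower, with Lamp1 no longer called (adjusted p = 0.0544) and Atp6v0e (0.0225) and Ctsc (0.0405) called by limma. Levels per kilobase depend on the length used: Lamp2 was 747 per kilobase of exon union and 1979 per kilobase of its longest transcript in injury. No filter beyond having values gave the same calls.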

Other observations

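Of 25 autophagy genes, 7 were higher (28%, against 28.5% of all genes), 6 were lower and 12 were not called (median log2 fold change 0.01). With equal library totals 4 were higher and 10 lower, and with the muscle covariate 2 were higher and 3 lower. Atg7, which encodes an enzyme of autophagosome formation, had 510, 489, 495 and 507 normalised read counts in injury and 385, 337, 376 and 344 in sham (1.39-fold, adjusted p = 0.000324 in limma). Uvrag rose 1.32-fold and Gabarap, encoding an autophagosome membrane tag, 1.26-fold. Map1lc3a, another such tag gene, had 833, 970, 1034 and 1081 in injury and 1759, 1943, 1907 and 2373 in sham (0.492-fold, adjusted p = 7.49e-05 in limma). The cargo receptor gene Sqstm1 was 0.778-fold, and its log2 fold change was −0.04 with the muscle covariate (adjusted p = 0.883).

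Other marker lists were also counted, beside 28.5% of all genes higher and 31.3% lower. Of 8 endothelial markers 6 were lower and 2 not called, and of 8 Schwann cell markers 5 were lower and 3 not called. Of 8 smooth muscle and pericyte markers 2 were higher, 4 were lower and 2 were not called. None of 5 mast cell markers with values was called. Of 8 neutrophil markers and of 10 T and B cell markers 1 each had values, and both were higher.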
